A study of Mus musculus with 6 samples.

Results

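The spleen's chemokine system was described in 6 arrays, as 53 genes for chemokines and their receptors out of 18193 genes with a named probe set. A gene was a member when its platform symbol was that of a chemokine (Ccl, Cxcl, Cx3cl or Xcl and a number) or of a conventional or atypical receptor (Ccr, Cxcr, Cx3cr, Xcr or Ackr and a number). Probe sets with several symbols were left out, and the brightest of a gene's probe sets stood for it. There were 33 ligand genes and 20 receptor genes, measured by 85 probe sets. Ligands whose probe sets carry the symbols of several near-identical genes, among them those of Ccr7, are not analysed here.

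Each array was labelled as the spleen of adult F1 females. In 3 the parents were AKR/J and FVB/NJ, and in 3 they were DBA/2J and FVB/NJ, so both crosses share an FVB/NJ genome and differ in the other parent. The animals were killed under Avertin anaesthesia, no other agent is named, and the stated question is how the genotypes differ at baseline. The labels do not say how many animals gave each sample. Differences are log2 ratios of the AKR/J over the DBA/2J cross, where positive means more signal in the AKR/J cross and 1 is a doubling.

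Chemokines are small secreted proteins that guide leukocytes by binding receptors coupled to inhibitory G proteins. In spleen, Cxcl13 made by follicular stroma draws B cells with Cxcr5 into follicles, Ccr7 takes T cells into the white pulp, and Cxcl12 holds Cxcr4-bearing cells in the red pulp. Inflammatory chemokines are induced by interferons or by bacterial and tissue-damage signals and recruit monocytes, neutrophils and activated T cells. Atypical receptors bind chemokines without classical G protein signalling and remove or store them.

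The arrays carried the markers of spleen: none of 7 B cell markers (such as Cd79a) and none of 9 T cell markers (such as Cd3e) was at background on any array. Background was taken as the 95th percentile of 81 probe sets for olfactory, vomeronasal and trace amine receptors, which stood at 4.62 to 4.66 in the AKR/J cross and 4.64 to 4.95 in the DBA/2J cross. Markers of pancreatic acinar cells were strong on 5 of the 6 arrays labelled as spleen. The mean over 9 such markers was 13.3 to 13.9 there, where the highest value of any probe set was 14.56. In DBA/2J replicate 3 it was 6.21. Of the 9, 0 passed the limma test between crosses, nor had an unadjusted p under 0.05. The low DBA/2J replicate 3 widened the SE of their differences (1.18 to 1.85), so that test could hardly pass. For all 9, every AKR/J array lay above every DBA/2J array, as for 4000 of 18193 genes. Signals on those 5 arrays may thus include RNA of pancreas. With the acinar marker mean as a covariate, 3.77% of all genes passed (17.2% without it), and of the members only Ackr2 (higher) and Ackr1 (lower). That covariate mostly sets DBA/2J replicate 3 apart, so the fit cannot separate pancreas from other traits of that array. Beyond that fit, the part of pancreas in the levels and differences below was not tested. Erythroid markers separated the crosses: 9 of 9 were lower in the AKR/J cross, where their mean ran over arrays from 7.81 to 8.46, against 9.58 to 10.42 in the DBA/2J cross. Of 9 T cell markers 8 were higher in the AKR/J cross, with means of 8.65 to 8.78, against 8.21 to 8.29 in the DBA/2J cross. In whole spleen, fewer cells of a type and less RNA per cell cannot be told apart.

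Of the 53 genes, 31 lay above background on all 6 arrays, 13 on none and 9 on some. Over all 18193 genes, 11343 lay above it on all 6 arrays and 5548 on none. Among those above background throughout were the homeostatic pair Cxcl13 (10.93 to 11.43 over all arrays) and Cxcr5 (9.02 to 9.78), the pair Cxcl12 (10.99 to 11.26) and Cxcr4 (9.64 to 10.99), the T cell homing receptor gene Ccr7 (9.06 to 9.95) and Ccl5 (9.71 to 10.01), a chemokine of T and NK cells. The receptor genes were more often above background (16 of 20) than the ligand genes (15 of 33), a count that was not tested. The 13 at background everywhere were Ccl1, Ccl2, Ccl7, Ccl8, Ccl11, Ccl12, Ccl20, Ccr4, Ccr8, Cxcl3, Cxcl5, Cxcl14 and Cxcl15, which include the monocyte attractants Ccl2, Ccl7 and Ccl12 and the lung chemokine Cxcl15. A dim probe set does not show that a gene is silent. The 9 above background on some arrays were Ccl3, Ccl17, Ccl25, Ccl27a, Ccr10, Cxcl2, Cxcl11, Xcl1 and Xcr1. With the 99th percentile as background 23 genes were above it on all arrays.

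In limma, with Benjamini-Hochberg adjustment over all 18193 genes, 12 of the 53 passed an adjusted p of 0.05 (22.6%), where 17.2% of all genes did, so the share was near that of the whole array. In 7 of these the AKR/J cross was higher (8.91% of all genes), and in 5 it was lower (8.31%). The median difference over the 53 genes was 0.00, and over all genes it was -0.01. Higher in the AKR/J cross were the interferon-induced ligands Cxcl9 and Cxcl10, the lymphocyte receptors Cxcr5, Ccr6 and Ccr9 and the atypical receptors Ackr2 and Ackr3. Lower were the atypical receptors Ackr1 and Ackr4 and the ligands Ccl1, Ccl28 and Cxcl17. The arrays of the crosses did not overlap for 20 genes, 8 with the AKR/J cross above and 12 with it below, and for 41.2% of all genes they did not overlap.

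**Figure D1:**
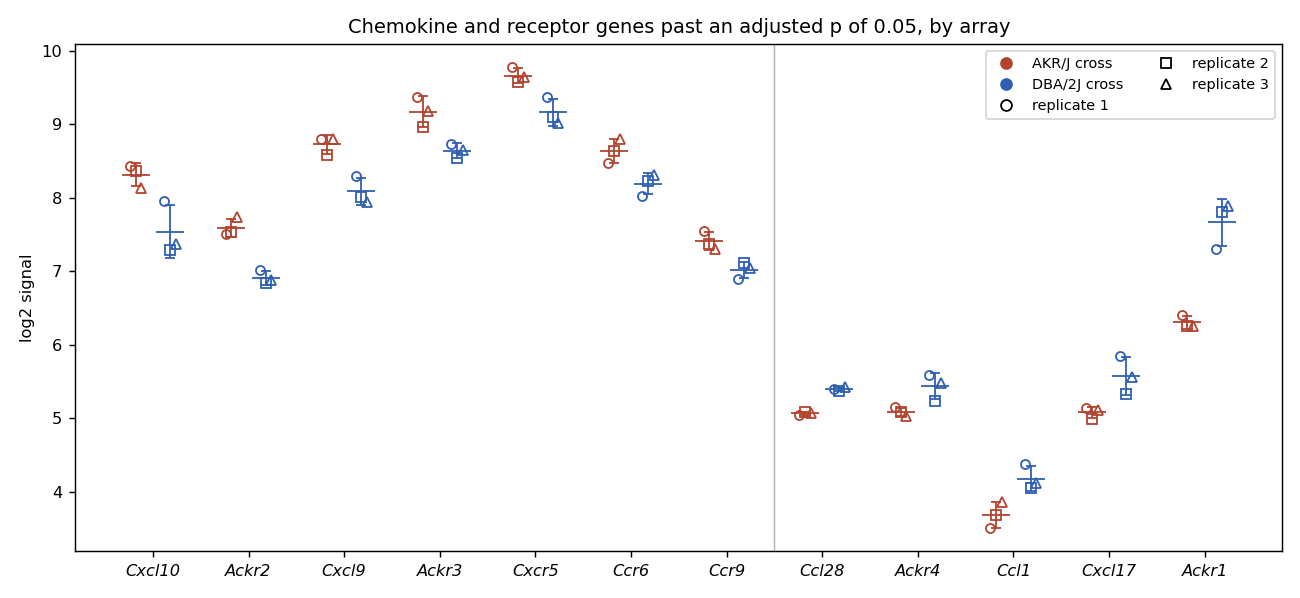
Log2 signal (vertical axis) on each array of the 12 chemokine and receptor genes past an adjusted p of 0.05, AKR/J cross left of DBA/2J cross for each gene; symbols mark the replicate number, and bars the mean and SD of 3 arrays. To the left of the grey line all AKR/J arrays lie above the DBA/2J arrays, to the right all lie below, and the widest gap is at Ackr1.

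Only 2 of the 12 calls, Ackr1 and Ackr2, were made in all 14 alternative analyses and whichever array was left out. They alone kept their calls with the acinar mean as a covariate. Leaving out AKR/J replicate 1, 2 or 3 gave 1, 3 or 1 higher genes, and leaving out DBA/2J replicate 1, 2 or 3 gave 5, 1 or 2. For lower genes the counts were 1, 1 or 1 and 3, 3 or 1. Over all genes the share called was 3.57% to 19% in these fits. Each fit with an array left out compares 3 arrays with 2.

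**Figure D2:**
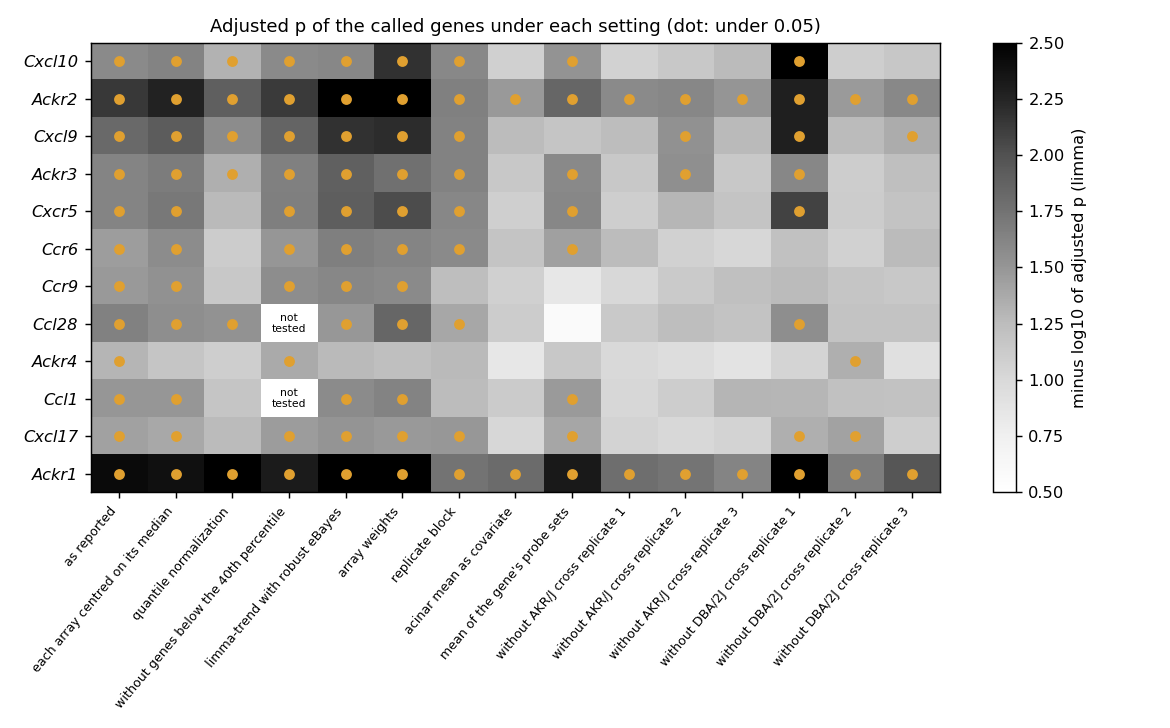
Adjusted p from limma for the 12 called genes (rows) as reported and in 14 alternative analyses (columns), darker for smaller p, with a dot where it was under 0.05. The rows of Ackr1 and Ackr2 have a dot in every column; Ccl1 and Ccl28 were not tested where dim genes were left out.

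All 4 measured atypical receptors passed (17.2% of all genes did), 2 higher and 2 lower in the AKR/J cross. Ackr1 had the largest difference of the 53 genes. Ackr1, the Duffy antigen, binds CC and CXC chemokines on venular endothelium and red cells. It had 6.41, 6.25 and 6.25 in the AKR/J cross, against 7.30, 7.81 and 7.88 in the DBA/2J cross. Every AKR/J array was below every DBA/2J array, and the difference was -1.36 ± 0.15 (SE, n = 3 each, limma adjusted p = 0.00377), a ratio of 0.389. Its adjusted p stayed below the threshold in each alternative. The erythroid marker means on the same arrays were 8.31, 8.46 and 7.81 in the AKR/J cross, against 9.58, 10.25 and 10.42 in the DBA/2J cross. Within the DBA/2J cross replicate 1 was lowest for Ackr1 and for the markers, and within the AKR/J cross the array with the lowest marker mean, replicate 3, did not stand apart for Ackr1. The part of red cell precursors in the Ackr1 difference was not tested.

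Ackr2, which takes up and degrades inflammatory CC chemokines, had 7.5, 7.53 and 7.73 in the AKR/J cross, against 7.02, 6.84 and 6.87 in the DBA/2J cross. The difference was 0.68 ± 0.09 (adjusted p = 0.00729), 1.60-fold. Of its 2 dimmer probe sets, 1 differed by 0.43 ± 0.08 (adjusted p = 0.0214 over all probe sets) and the other by 0.28 ± 0.12 without passing (adjusted p = 0.143), so all 3 were positive. Ackr3, which scavenges Cxcl12, had 9.37, 8.96 and 9.18 in the AKR/J cross, against 8.73, 8.53 and 8.64 in the DBA/2J cross. It differed by 0.53 ± 0.12 (adjusted p = 0.0240), 1.45-fold. Its call was lost without replicate 1 or 3 of the AKR/J cross or 2 or 3 of the DBA/2J cross (adjusted p 0.059 to 0.0781). In mice both genes are known in marginal zone B cells and in endothelium. Of 7 B cell markers 3 passed as higher in the AKR/J cross, and of 12 stromal and endothelial markers 4 passed (Dcn, Lum, Pdgfrb and Kdr) and all 12 were positive. The stromal and endothelial mean ran from 8.04 to 8.25 in the AKR/J cross, against 7.64 to 7.91 in the DBA/2J cross, and Lum was at background on the DBA/2J arrays. The part of these cells in the receptor differences was not tested.

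Ackr4, which scavenges the ligands of Ccr7 and Ccr9, gave no settled direction. At its brightest probe set it had 5.15, 5.08 and 5.03 in the AKR/J cross, against 5.58, 5.24 and 5.48 in the DBA/2J cross. That difference of -0.35 ± 0.10 lay at the edge of the threshold (adjusted p = 0.0496). At its other probe sets, both at background on all arrays, the AKR/J arrays had the higher signals (adjusted p = 0.0468 and 0.0368 over all probe sets). With the mean of its probe sets the difference was 0.32 (adjusted p = 0.0712), and the call was lost in 12 of 14 alternatives.

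The interferon-induced ligands Cxcl9 and Cxcl10 were higher in the AKR/J cross, while their receptor gene Cxcr3 did not pass. Both recruit activated T cells and NK cells. Cxcl10 had 8.43, 8.37 and 8.14 in the AKR/J cross, against 7.95, 7.29 and 7.37 in the DBA/2J cross, a difference of 0.77 ± 0.17 (adjusted p = 0.0260) or 1.71-fold. Cxcl9 had 8.80, 8.57 and 8.80 in the AKR/J cross, against 8.30, 8.0 and 7.95 in the DBA/2J cross, a difference of 0.64 ± 0.12 (adjusted p = 0.0151) or 1.56-fold. Neither gene's arrays overlapped between crosses, and in the DBA/2J cross replicate 1 was the highest for both. Markers of cells that can make them moved the same way in part. Of 10 monocyte and macrophage markers 3 passed as higher (Marco, Cd5l and Timd4), 8 were positive and 2 negative (Siglec1 -0.14 and Vcam1 -0.08). Their list means were 9.97 to 10.07 in the AKR/J cross, against 9.69 to 9.80 in the DBA/2J cross. Of 6 dendritic cell markers 3 passed as higher (Zbtb46, Cd209a and Siglech), 5 were positive and 1 negative (Flt3 -0.04). Their means were 7.52 to 7.63 in the AKR/J cross, against 7.08 to 7.31 in the DBA/2J cross. With the stromal markers given above, their part in the Cxcl9 and Cxcl10 differences was not tested. The Cxcl10 call was lost without any 1 array other than replicate 1 of the DBA/2J cross (adjusted p 0.0551 to 0.0875 in those 5 fits). The Cxcl9 call was lost without replicate 1 (0.0567) or 3 (0.0536) of the AKR/J cross and DBA/2J replicate 2 (0.055), and with the mean of its 2 probe sets (0.0664). Both calls were also lost with the acinar mean as a covariate.

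Cxcl11, the remaining ligand of Cxcr3, stood close to background, with 5.21, 4.71 and 4.63 in the AKR/J cross, against 4.39, 4.61 and 4.45 in the DBA/2J cross. It lay above background on all 3 AKR/J arrays and on none of the DBA/2J arrays, and did not pass (adjusted p = 0.121). Cxcr3 had 8.07, 7.71 and 7.82 in the AKR/J cross, against 7.89, 7.58 and 7.41 in the DBA/2J cross. Its difference of 0.24 ± 0.14 did not pass (adjusted p = 0.250), and the crosses overlapped.

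Cxcl9, Cxcl10 and Cxcl11 follow each other on chromosome 5. The 250 bases before the annotated starts of the called pair are shown because these genes differ together (RefSeq, build GRCm38.p6, both on the minus strand). Capitals mark matches on either strand to an interferon-stimulated response element (GAAA, any 2 bases, GAAA), an NF-kB motif (GGGA, any 2 bases, TTCC) or a TATA motif (TATAAA).
Cxcl10, chr5:92348890-92349139: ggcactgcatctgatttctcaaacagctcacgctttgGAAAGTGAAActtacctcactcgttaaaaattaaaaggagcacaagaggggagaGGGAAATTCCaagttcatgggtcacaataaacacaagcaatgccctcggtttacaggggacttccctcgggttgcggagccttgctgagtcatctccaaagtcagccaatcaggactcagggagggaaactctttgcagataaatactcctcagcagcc
Cxcl9, chr5:92328080-92328329: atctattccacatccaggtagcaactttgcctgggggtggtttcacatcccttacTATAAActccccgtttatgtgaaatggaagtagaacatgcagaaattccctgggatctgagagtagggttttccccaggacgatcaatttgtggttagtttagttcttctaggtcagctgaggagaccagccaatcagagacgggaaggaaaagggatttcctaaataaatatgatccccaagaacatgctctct

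The Cxcl10 window held the interferon motif 213 to 204 bases before the start and the NF-kB motif 159 to 150 bases before it, and the Cxcl9 window held the TATA motif alone. The interferon motif was found in 2.98% of 32851 such windows, the NF-kB motif in 1.21% and the TATA motif in 12.4%. A gamma-activated site (TTC, any 3 bases, GAA), found in 7.02%, was in neither window as spelled. These matches describe the reference sequence and not that of AKR/J, DBA/2J or FVB/NJ.

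Xcl1, its receptor gene Xcr1 of cross-presenting dendritic cells, and the pair Cx3cl1 and Cx3cr1 made up the rest of this group, and none passed. Cx3cr1, the receptor of patrolling monocytes, had 7.0, 7.29 and 7.40 in the AKR/J cross, against 7.08, 6.66 and 6.88 in the DBA/2J cross (0.35 ± 0.14, adjusted p = 0.104). Its membrane-bound ligand Cx3cl1 had 5.35, 5.58 and 5.43 in the AKR/J cross, against 5.85, 5.61 and 5.92 in the DBA/2J cross. The Cx3cl1 arrays did not overlap, and its difference of -0.34 ± 0.11 fell short of the threshold (adjusted p = 0.0601).

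Among 15 genes of lymphoid homing were 7 receptor genes. Of these, 3 (Cxcr5, Ccr6 and Ccr9) passed with the AKR/J cross higher (8.91% of all genes did), and the other 4 did not pass. Those 4 differed by 0.22 (Ccr7, adjusted p = 0.511), 0.11 (Cxcr4, 0.852), 0.22 (Cxcr6, 0.139) and -0.26 (Ccr10, 0.103). Cxcr5, the follicle receptor of B cells, had 9.78, 9.57 and 9.63 in the AKR/J cross, against 9.36, 9.09 and 9.02 in the DBA/2J cross (0.50 ± 0.11, adjusted p = 0.0239, 1.42-fold). Its ligand Cxcl13 had 10.97, 11.02 and 10.93 in the AKR/J cross, against 11.06, 11.07 and 11.43 in the DBA/2J cross. Cxcl13 thus leaned the other way at this probe set, without overlap between the arrays, and did not pass (-0.21 ± 0.11, adjusted p = 0.204). At its other probe set the arrays overlapped (-0.16 ± 0.12, adjusted p = 0.363 over all probe sets). Ccr6, the Ccl20 receptor of B cells and some T cells, had 8.47, 8.63 and 8.80 in the AKR/J cross, against 8.03, 8.23 and 8.31 in the DBA/2J cross (0.44 ± 0.11, adjusted p = 0.0356, 1.36-fold). Its ligand Ccl20 was at background on every array.

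Ccr9, the gut and thymus homing receptor, had 7.54, 7.37 and 7.30 in the AKR/J cross, against 6.90, 7.11 and 7.05 in the DBA/2J cross (0.39 ± 0.10, adjusted p = 0.0329, 1.31-fold). Its ligand Ccl25 was above background on 3 of 6 arrays, and the other 4 probe sets of Ccr9 did not pass (adjusted p 0.121 to 0.614 over all probe sets). Every AKR/J array was above every DBA/2J array for Cxcr5, Ccr6 and Ccr9. The Cxcr5 call was lost without any 1 array but replicate 1 of the DBA/2J cross (adjusted p 0.0505 to 0.0800 in those 5 fits), and those of Ccr6 (0.0546 to 0.0974) and Ccr9 (0.0549 to 0.0988) without any 1 of the 6.

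B cell markers moved with these receptors in part. Of 7, 3 passed and all were positive, and their mean was 11.01, 10.85 and 10.92 in the AKR/J cross, against 10.83, 10.53 and 10.55 in the DBA/2J cross. As for Cxcr5, replicate 1 was the highest in each cross. For Ccr6 it was the lowest in each cross. For Ccr9 it was the highest in the AKR/J cross and the lowest in the DBA/2J cross. The part of lymphocyte content in the receptor differences was not tested.

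**Figure D3:**
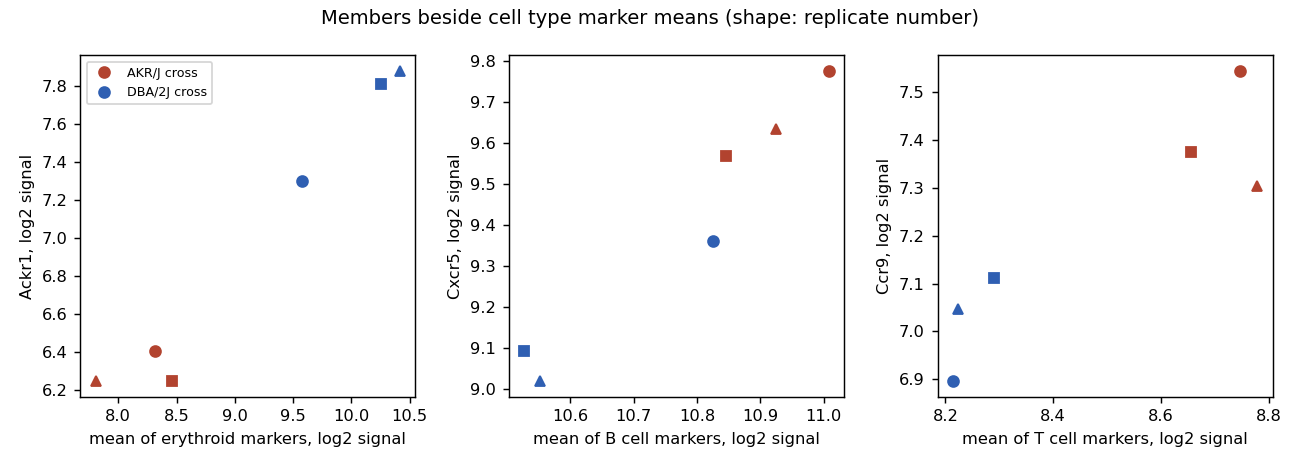
Log2 signal (vertical axes) against mean marker log2 signal on the same array (horizontal axes), for Ackr1 with 9 erythroid, Cxcr5 with 7 B cell and Ccr9 with 9 T cell markers, with colour for the cross and symbol for the replicate number. Ackr1 and the erythroid mean are both lower in all AKR/J arrays, and Cxcr5, Ccr9 and their marker means are all higher there.

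Ccl28, a mucosal ligand of Ccr10, was the only ligand of this group to pass, and it was dim. It had 5.04, 5.09 and 5.07 in the AKR/J cross, against 5.39, 5.37 and 5.42 in the DBA/2J cross (-0.33 ± 0.07, adjusted p = 0.0226). Its other 2 probe sets, at background, differed by 0.02 and -0.02. The mean of its probe sets did not pass (adjusted p = 0.267), and neither did the gene without any 1 array but replicate 1 of the DBA/2J cross (0.058 to 0.073).

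The remaining homing genes did not pass. Cxcl12 had 11.25, 11.26 and 11.21 in the AKR/J cross, against 11.12, 10.99 and 11.26 in the DBA/2J cross (0.12 ± 0.09, adjusted p = 0.356). Its dimmest probe set, by contrast, had the AKR/J cross lower (-0.44 ± 0.09, adjusted p = 0.0234 over all probe sets). Cxcl16, a scavenger receptor and chemokine of macrophages, did not pass at its brighter probe set (0.11 ± 0.09, adjusted p = 0.419) and did at its dimmer one (0.39 ± 0.10, adjusted p = 0.0465 over all probe sets). Its receptor gene Cxcr6 differed by 0.22 ± 0.10 (adjusted p = 0.139). Probe sets of 1 gene can read different transcript ends, and strain differences in the bases a probe binds can dim it, which was not tested.

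Of 19 genes of monocyte and inflammatory CC chemokines and receptors, 8 were at background on all arrays and 1 passed (17.2% of all genes). That gene was Ccl1, the ligand of Ccr8 from activated T cells, itself at background on all 6 arrays, with 3.51, 3.69 and 3.86 in the AKR/J cross, against 4.37, 4.05 and 4.11 in the DBA/2J cross (adjusted p = 0.0318). No fold is given for it, and its call was lost whichever array was left out (0.0504 to 0.0966). Ccl5 had 9.74, 9.81 and 10.01 in the AKR/J cross, against 9.98, 9.83 and 9.71 in the DBA/2J cross, a difference of 0.01 ± 0.10 (adjusted p = 0.932). Ccl6 and Ccl9, myeloid chemokines of mice next to each other on chromosome 11, had unlike signs. Ccl6 differed by 0.37 ± 0.15 (adjusted p = 0.125) and Ccl9 by -0.29 ± 0.16 (adjusted p = 0.218).

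None of the receptor genes of this group passed. Ccr3, the eosinophil receptor, differed by -0.03 ± 0.09, Ccr1 by -0.20 ± 0.25 and Ccr2, the receptor of inflammatory monocytes, by -0.09 ± 0.07, with adjusted p 0.376 to 0.823. The 3 dimmer probe sets of Ccr2 differed by 0.36, 0.46 and 0.26 and did not pass either (adjusted p 0.0512 to 0.138 over all probe sets). The dendritic cell ligand Ccl22 fell just short, with 5.30, 5.14 and 5.16 in the AKR/J cross, against 5.57, 5.51 and 5.36 in the DBA/2J cross (-0.28 ± 0.09, adjusted p = 0.0622).

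The direction of calls moved with level over the whole array. Among genes with mean levels between 3.62 and 5.25, where Ccl1 and Ccl28 lay, 506 passed as lower and 140 as higher in the AKR/J cross. Between 5.25 and 6.91, where Cxcl17 and Ackr4 lay close to the lower end, 391 passed as lower and 428 as higher. Between 6.91 and 8.24, where Ackr2, Ccr9 and Cxcl10 lay, 190 passed as lower and 536 as higher. Above 8.24, where Ackr3, Ccr6, Cxcr5 and Cxcl9 lay, 205 passed as lower and 493 as higher. The sensory receptor probe sets had a median difference of -0.12, with 71 of 81 negative. After quantile normalization 4 members were higher (Ackr2, Ackr3, Cxcl9 and Cxcl10) and 2 lower (Ackr1 and Ccl28). The AKR/J cross was the higher one in 51.7% of all calls as reported, 62.5% with each array centred on its median and 41.2% after quantile normalization.

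Cxcl17, a mucosal chemokine listed with the neutrophil CXC genes, passed at a dim level. It had 5.14, 4.99 and 5.10 in the AKR/J cross, against 5.85, 5.33 and 5.56 in the DBA/2J cross (-0.50 ± 0.13, adjusted p = 0.0372). Its call was lost without any 1 array but replicates 1 and 2 of the DBA/2J cross (0.0800 to 0.0994), and after quantile normalization (0.0543). The acinar mean as a covariate also lost it. None of the neutrophil attractants, nor their receptor gene Cxcr2 (-0.12 ± 0.11, adjusted p = 0.460), passed, and 0 of 8 neutrophil markers did in limma, also at an unadjusted p under 0.05.

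**Figure D4:**
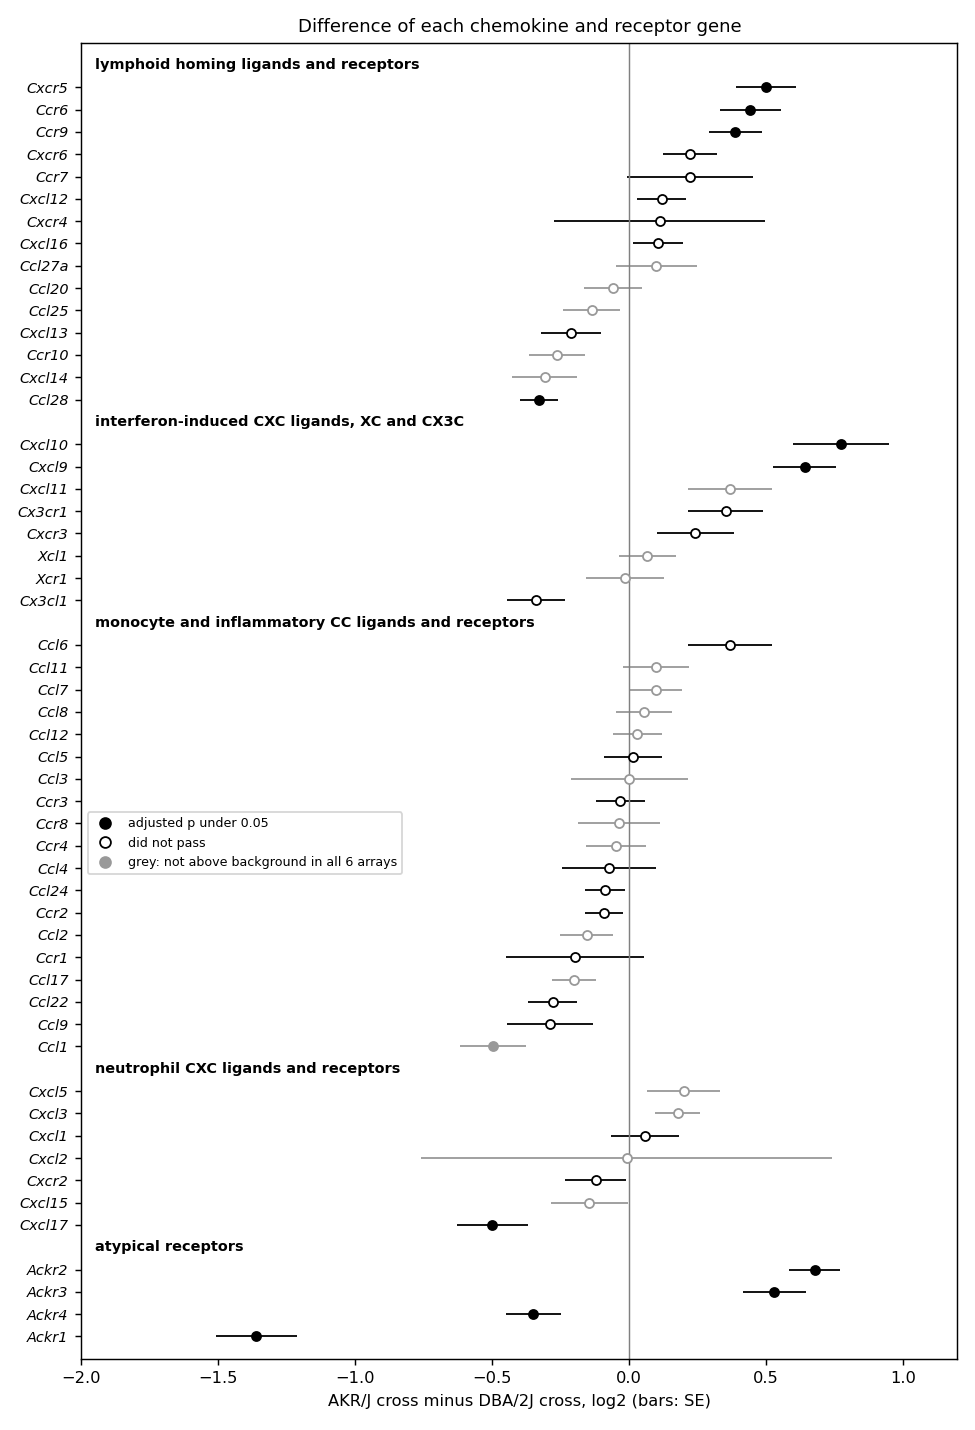
Difference AKR/J cross minus DBA/2J cross (horizontal axis, log2, bars SE) of the 53 genes by role. Filled points passed an adjusted p of 0.05, and grey points were not above background on all 6 arrays; most points lie within 0.5 of 0, Ackr1 is the lowest, and the bar of Cxcl2 is the widest.

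The neutrophil attractants Cxcl1 and Cxcl2 varied within each cross. Cxcl2 had 2.95, 4.50 and 5.76 in replicates 1, 2 and 3 of the AKR/J cross, against 3.29, 4.29 and 5.65 in replicates 1, 2 and 3 of the DBA/2J cross. Same-numbered arrays of the crosses were thus within 0.34 of each other, while the means of the numbers lay 2.59 apart, a spread above that of 99.9% of genes. The difference between crosses was -0.01 ± 0.75 (adjusted p = 0.995). At the dimmest of its 3 probe sets Cxcl1 had 4.38, 6.46 and 7.59 in the AKR/J cross, against 4.66, 5.56 and 6.19 in the DBA/2J cross, in the same order of replicates. At its brightest probe set, which by its name may bind related transcripts, Cxcl1 was 7.05 to 7.41 on all arrays.

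The same arrangement was seen at Cxcr4, with 9.76, 10.78 and 10.99 in the AKR/J cross, against 9.64, 10.67 and 10.88 in the DBA/2J cross. Ccr7 had 9.26, 9.71 and 9.95 in the AKR/J cross, against 9.06, 9.30 and 9.88 in the DBA/2J cross. Of the signalling and guidance genes, Rgs1, an inhibitor of chemokine receptor signalling, had 7.93, 10.06 and 9.75 in the AKR/J cross, against 7.89, 9.67 and 10.03 in the DBA/2J cross. In each of these genes replicate 1 was the lowest array of its cross. Other genes had replicate 1 as the highest array of both crosses. The inflammatory receptor gene Ccr1 had 6.01, 5.35 and 5.59 in the AKR/J cross, against 6.39, 5.72 and 5.43 in the DBA/2J cross. A sphingosine phosphate receptor gene, S1pr3, had 10.11, 9.76 and 9.50 in the AKR/J cross, against 9.96, 9.20 and 9.12 in the DBA/2J cross. All of them were singled out after their values were seen. The labels do not say what same-numbered samples share, and the cause was not tested.

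**Figure D5:**
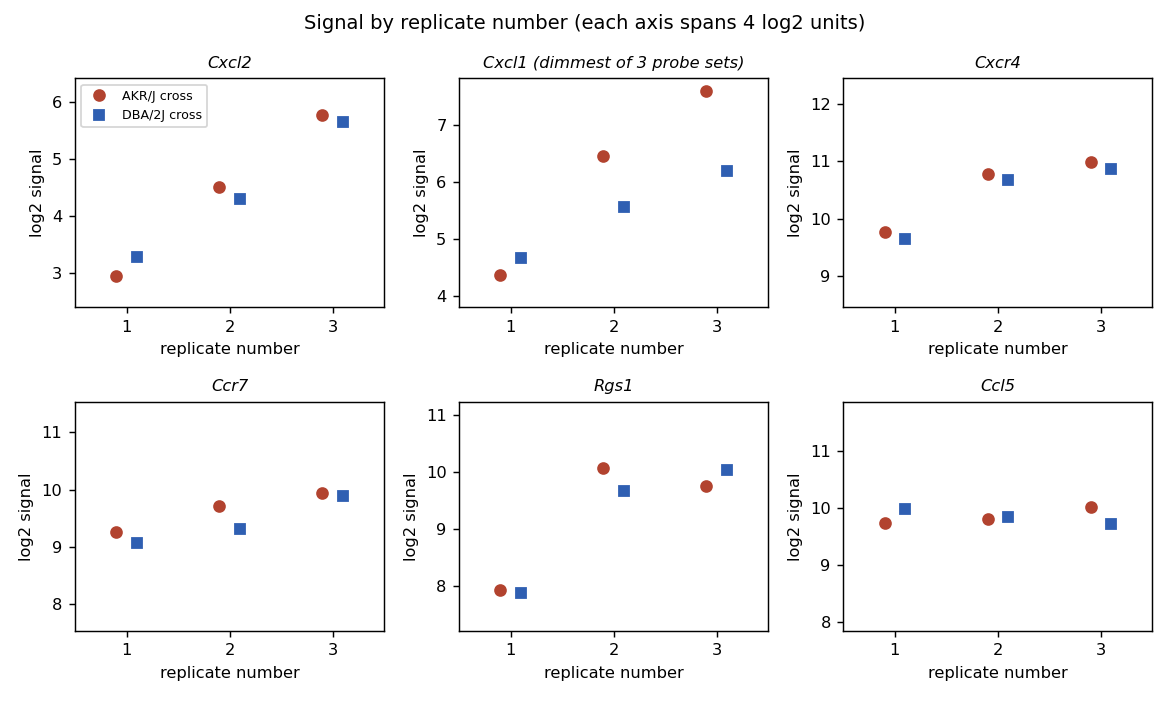
Log2 signal (vertical axes, 4 log2 units each) of Cxcl2, Cxcl1, Cxcr4, Ccr7, Rgs1 and, for contrast, Ccl5 by replicate number (horizontal axes), AKR/J cross as circles left of DBA/2J cross as squares. Replicate 1 is the lowest of both crosses in each panel but that of Ccl5, which stays between 9.71 and 10.01 with no such pattern.

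The promoters of Cxcl1 and Cxcl2 are shown for their shared motif (RefSeq, build GRCm38.p6, both on the plus strand of chromosome 5, 250 bases before the start). Capitals mark overlapping matches to the NF-kB motif on the 2 strands.
Cxcl1, chr5:90890995-90891244: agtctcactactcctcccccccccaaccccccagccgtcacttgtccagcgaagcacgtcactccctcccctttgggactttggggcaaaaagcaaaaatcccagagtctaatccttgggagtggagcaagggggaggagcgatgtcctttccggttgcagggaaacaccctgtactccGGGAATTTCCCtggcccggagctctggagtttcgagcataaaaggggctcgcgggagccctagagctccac
Cxcl2, chr5:90903649-90903898: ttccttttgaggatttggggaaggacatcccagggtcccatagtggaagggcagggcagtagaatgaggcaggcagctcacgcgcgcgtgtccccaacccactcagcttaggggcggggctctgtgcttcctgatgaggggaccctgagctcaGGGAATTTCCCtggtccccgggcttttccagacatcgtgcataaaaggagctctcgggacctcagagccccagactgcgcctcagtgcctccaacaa

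The 40 member genes with a window had 44 windows. Of these 6 held the NF-kB motif, namely those of Ccl1, Ccr3, Cxcl1, Cxcl2, Cxcl3 and Cxcl10, against 1.21% of all windows. The TATA motif was in 13 of the 44 (12.4% of all windows), the gamma-activated site in 3 (7.02%) and the interferon motif in 2 (2.98%). These counts were not tested. Cxcl3, which lies in the same cluster as Cxcl1 and Cxcl2, was at background on all arrays (2.15 to 2.47).

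By position, the CC ligand genes cluster on chromosome 11, where 1 of 14 members passed (Ccl1). On chromosome 5 Cxcl9 and Cxcl10 passed of 10 members. On chromosome 9, which carries many receptor genes, 4 of 12 passed: Cxcr5, Ackr2 and Ccr9 were higher and Ackr4, without a settled direction, lower. Over all genes 17.2% passed, and the counts by chromosome were not tested.

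At probe set level, 16 of the 85 passed an adjusted p of 0.05 over 45037 probe sets, of which 10.4% did. Of the 53 genes, 20 had several probe sets.

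Downstream of the receptors, 8 of 34 measured signalling genes passed, 7 higher and 1 lower in the AKR/J cross (17.2% of all genes), with a median difference of 0.14. The median was -0.01 over all genes and 0.11 over genes with mean levels from 6.91 to 8.24 and likewise above 8.24, the range in which the list's array means lay (8.61 to 8.88). The largest was Pik3cg, the phosphoinositide 3-kinase subunit that G protein beta-gamma dimers activate, with 8.44, 8.63 and 8.72 in the AKR/J cross, against 7.36, 7.27 and 7.34 in the DBA/2J cross. It was 2.42-fold higher (1.28 ± 0.09, adjusted p = 0.000625) and passed in all 14 alternatives, with a difference of 0.72 when its probe sets were averaged and 1.19 to 1.35 in the others. Arrb1, which encodes the receptor-desensitising beta-arrestin 1, had 8.24, 8.39 and 8.29 in the AKR/J cross, against 8.67, 8.94 and 9.01 in the DBA/2J cross (-0.57 ± 0.10, adjusted p = 0.0159). Its call was lost without replicate 1 (0.0593) or 3 (0.0545) of the AKR/J cross and DBA/2J replicate 2 (0.0587). Ptk2b, the kinase Pyk2 that acts in chemokine-driven migration, differed by 0.33 ± 0.08 (adjusted p = 0.0319), lost without any 1 array other than replicate 1 of the DBA/2J cross. Rgs13, a regulator of G protein signalling, passed (adjusted p = 0.0284) at background on all arrays, and lost its call without AKR/J replicate 1 or 2 or DBA/2J replicate 2 or 3 (0.0564 to 0.0882).

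Of 17 genes that build lymphoid tissue or anchor cells in it, 1 passed, the adhesion molecule Icam1 (0.44 ± 0.12, adjusted p = 0.0446). The median was 0.14 for the list, and 17.2% of all genes passed. Icam1 lost its call without any 1 array but DBA/2J replicate 1 (0.0879 to 0.121). The lymphotoxin gene Ltb, which maintains Cxcl13-producing stroma, differed by 0.26 ± 0.13 (adjusted p = 0.186). Of 14 other guidance receptors 2 passed (17.2% of all genes). Gpr183, the oxysterol receptor that positions B cells, had 8.98, 8.79 and 9.06 in the AKR/J cross, against 8.58, 8.23 and 8.38 in the DBA/2J cross (0.55 ± 0.11, adjusted p = 0.0215). It was lost without replicate 1 or 3 of the AKR/J cross or 2 or 3 of the DBA/2J cross (0.0559 to 0.0725). The complement receptor C3ar1 passed at background on all arrays (adjusted p = 0.0272), and not without AKR/J replicate 2 or 3 or DBA/2J replicate 2 or 3 (0.0702 to 0.0809). The platelet chemokine genes Pf4 and Ppbp, whose symbols fall outside the naming rule, differed by -0.23 ± 0.15 and -0.47 ± 0.17 and did not pass (adjusted p = 0.305 and 0.0938).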

How the data were processed

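Spleen RNA of F1 females was hybridised to 6 Affymetrix arrays, and groups and replicate numbers come from the sample titles. The deposited values are log2 signals of 45101 probe sets (1.81 to 14.56), with array medians of 5.04 to 5.10. RMA and MAS5 were used per the submitters' processing notes, with no role or version given. Detection calls were not used here. Precision is limited by having 3 arrays a group, and p-values measure only the spread between these samples, which may be technical.

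After leaving out 64 control probe sets, the 34945 probe sets with 1 symbol gave 18193 genes, each by its brightest probe set. All 53 members matched assembly GRCm38.p6. Differences were fitted with limma 3.58.1 (lmFit, eBayes) in R 4.3.3, without covariates, in 6 arrays, with Benjamini-Hochberg adjustment over all genes, and again over all 45037 probe sets. An exact permutation test of 3 against 3 cannot go below p = 0.1. The procedure was tested on simulated data, with 40 genes changed at each of the differences 0.3, 0.5, 0.8, 1.2 and 2. It recovered 0 of 40 true differences of 0.3, 16 of 40 of 0.5 and 30 of 40 of 0.8. Far fewer genes were changed there than the 3133 called in the data, which makes the adjustment stricter. These counts are thus not the share recovered in the data, where Ccl28 passed at -0.33. A gene that did not pass may still differ by amounts of this size.

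The members and lists were chosen with earlier results of these data known. Every member could be named. From the signalling, lymphoid tissue and guidance lists, at most 4 called genes were named, taken by smallest adjusted p, with Rgs1, S1pr3, Ltb, Pf4 and Ppbp added after their values were seen. Alternatives were median centring, quantile normalization, leaving out genes below the 40th percentile, a trended robust variance, weighting of arrays, a block for the replicate number, the acinar marker mean as a covariate, averaging over each gene's probe sets, and leaving out each array.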

Additional observations from a re-analysis of the deposited data

How the results depend on the processing

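With 3 arrays a group, most calls depend on single arrays. Leaving out each array in turn gave 1 to 5 members higher and 1 to 3 lower in the AKR/J cross, 2 to 11 member probe sets, 1 to 9 signalling genes, 0 to 2 lymphoid tissue genes and 0 to 5 other guidance receptors, against 7, 5, 16, 8, 1 and 2 as reported. Fewer samples enter these fits. In the same order, quantile normalization gave 4, 2, 8, 3, 0 and 1, and the acinar mean as a covariate, which mostly sets replicate 3 of the DBA/2J cross apart, gave 1, 1, 2, 1, 0 and 0. Averaging each gene's probe sets gave 3 lower members and 1 guidance receptor, and leaving out dim genes 1 guidance receptor. Median centring and array weights each gave 2 lymphoid tissue genes. The cause of these changes was not tested. Ackr4 alone changed sign with a call at stake, to 0.32 with the mean of its probe sets. Members above background numbered 23 to 37 under the other limits and 31 to 33 without any 1 array. Same-numbered samples had deviations from their group means that correlated at 0.169, 0.131 and -0.0133 for numbers 1, 2 and 3. Samples of unlike number in the 2 crosses correlated at -0.231 to 0.0925. The numbers were not taken as pairs in the main fit, so a spread between numbers widens its SE. With the replicate number as a block 6 members were higher, 3 lower and 0 lymphoid tissue genes passed, and Ccr9, Ackr4 and Ccl1 lost their calls (adjusted p = 0.0574, 0.0541 and 0.0558). Cxcl2, Cxcr4 and Rgs1, whose numbers lay far apart, did not pass in that limma fit either (adjusted p = 0.969, 0.297 and 0.803). Signals close to background limit what the dim members can show.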
